A study of Homo sapiens with 11 samples.

Results

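The mitochondrial ribosomal protein genes were taken as every row of the gene count table whose symbol reads MRPL or MRPS followed by a number and, at most, a letter A, B or C. The rule found 78 genes among 38557 annotated ones, 49 with the MRPL prefix, which names proteins of the large ribosomal subunit, and 29 with the MRPS prefix, which names proteins of the small one. RNA sequencing had been done on MOLM-13, an established line of acute myeloid leukemia cells that carries a KMT2A rearrangement. Cells of every group were kept for 72 h, either with the solvent DMSO (n = 4 libraries), with 1 µM MI-503 (n = 4), an inhibitor of the KMT2A partner protein Menin, or with 1 µM MI-503 plus 100 nM PR-957 (n = 3, numbered 1, 2 and 4 in the labels), the second agent being directed at PSMB8, which is a protease subunit of the immunoproteasome. The last group is called the combination below. No library used here had PR-957 alone, so what it adds can be seen only in the presence of MI-503, and a single cell line limits what the groups can stand for. The comparisons ask what Menin inhibition changes in these genes, what both inhibitors change together, and what PR-957 adds.

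Mitochondria carry their own ribosome, which translates the few mRNAs encoded by mitochondrial DNA, all of them for core subunits of the respiratory chain and the ATP synthase. Its ribosomal RNAs come from mitochondrial DNA, whereas its proteins are encoded in the nucleus, made in the cytosol and imported. The small subunit binds the mRNA and reads its codons, and the large subunit joins the amino acids and passes the chain to the inner membrane. Acute myeloid leukemia cells are known to be sensitive to drugs that block mitochondrial translation. The symbols do not follow the structure in every case. MRPS30 and MRPS18A sit in the large subunit, and the product of MRPS36, also called KGD4, belongs to the 2-oxoglutarate dehydrogenase complex rather than to the ribosome.

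Counted fragments per library ran from 18891243 to 41153974. Levels are given as CPM (counts divided by the library total in units of 1e6) after TMM scaling, and gene-wise changes as log2 fold changes from edgeR's quasi-likelihood test, adjusted over the 14683 genes that passed its filter on low counts. Genes with an adjusted p under 0.05 are said to be called. Replicate 1 of the combination stood apart from its group, since its counts gave a chi-square of 17.7 for each degree of freedom against replicate 2 and of 30.2 against replicate 4, where the other replicate pairs of all groups ranged from 1.67 to 5.53, so results that rest on it are given with and without it. Nothing in the labels says that replicates were separate cultures, so p-values measure the spread between these libraries, which may be technical. The myeloid markers PTPRC, CD33, SPI1, MPO, FLT3, HOXA9 and MEIS1 all passed the filter, and their summed level was 892 to 953 CPM in DMSO, 940.1 to 982 in MI-503 and 832 to 875 in the combination. Of these 7 markers, 4 were called higher and 3 lower with MI-503, and their part in the results below was not tested. Among markers of other cell types, MS4A1 was at 0 in every library. COL1A1 was at 0.37, 0.38 and 0.81 CPM in DMSO, MI-503 and the combination (group means) and was called higher in the combination than in either other group. Both were named after their values were seen. Values after ± are SDs over the 4, 4 and 3 libraries of a group.

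In DMSO the 78 genes together took between 0.468% and 0.481% of all counted fragments. Per kilobase of exon, the level of MRPL12 was the highest, at 132 ± 4.10 CPM per kb. It encodes the stalk protein through which translation factors reach the ribosome. MRPL51 stood at 108 ± 4.58 CPM per kb, MRPS34 at 112 ± 1.67 CPM per kb and MRPS21 at 69.4 ± 1.52 CPM per kb, MRPS34 and MRPS21 being the highest of the small subunit. MRPS34 and MRPL51, next to each other in this order, did not differ beyond their spread. At the other end of the tested genes were MRPL19 with 4.84 ± 0.30 CPM per kb and MRPL55 with 6.10 ± 0.48 CPM per kb in the large subunit, and MRPS18B with 0.52 ± 0.10 CPM per kb and MRPS36 with 5.10 ± 0.56 CPM per kb in the small one. These low levels need care, because 84.36% of the exon bases of MRPL19 (chr2:75646783-75662206) are shared with GCFC2, and the whole of MRPS18B recurs on other contigs of hg38. Fragments that overlap several genes or map to several places had been left out of the counts.

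Only MRPS12 and MRPS24 fell below the filter. MRPS12 (chr19:38930708-38933020), the counterpart of a decoding-center protein of bacterial ribosomes, had 6 counts over all 11 libraries, and its exons are annotated on a second contig as well. Yet 0% of its 100-base exon windows recurred in the hg38 sequence searched, and the reason for its low count was not tested. MRPS24 (chr7:43866558-43869517) had 32 counts over all 11 libraries, and 90.85% of its exon bases are shared with the readthrough gene URGCP-MRPS24. The counts of neither gene were read as expression. In all, 15 of the 78 genes shared more than 10% of their exon bases with another gene, on either strand, since counting was unstranded, and 54 shared none. A set of 53 tested genes had no shared stretch above 10%, lay on 1 contig and held no 100-base window that recurs elsewhere in hg38. Where this set gave another picture, its values are stated.

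RefSeq promoter windows of GRCh38.p14, from 250 bases before to 50 after the start of the gene, were at hand for 69 of the 78 genes. Whether the motifs in them bear on the changes against DMSO that follow was not tested. Both strands of each window were searched for short letter motifs. CCGGAAG, the core of sites bound by ETS factors such as GABPA, was present in 29 of 69 windows (42.0%), against 10.7% of the windows of all 27305 genes and 18.9% of those of the tested genes. AAGATGG, the core of the YY1 site, was present in 23 of 69 (33.3%), against 6.06% and 7.54%. Both motifs stood in 9 of the 69 windows, against 0.872% and 1.77%. The NRF1 site, searched as GCGCA, any base and GCGC, was present in 8 of 69 (11.6%), against 6.28% and 11.4%, and CACGTG, the E-box bound by MYC, in 6 of 69 (8.70%), against 7.43% and 9.99%. The ETS letters end as the YY1 letters begin, so the 2 motifs can overlap, and a match describes the sequence, not binding. The ETS letters had their median position 18.5 bases before the start, and the YY1 letters 12.5 bases after it. The stretches below hold both motifs within 100 bases before to 30 after the start, with the motif letters of either strand in capitals. They belong to MRPL20 (chr1:1407264-1407393, minus strand), MRPS10 (chr6:42217832-42217961, minus strand), MRPL52 (chr14:22829787-22829916, plus strand) and MRPS18A (chr6:43687762-43687891, minus strand). These are the 4 of 5 candidates with the highest DMSO level per kilobase. Candidates had to be called lower in both comparisons with DMSO, as most of the tested genes were.
MRPL20: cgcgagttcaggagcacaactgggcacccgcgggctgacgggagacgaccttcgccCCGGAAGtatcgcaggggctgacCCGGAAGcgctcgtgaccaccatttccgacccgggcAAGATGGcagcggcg
MRPS10: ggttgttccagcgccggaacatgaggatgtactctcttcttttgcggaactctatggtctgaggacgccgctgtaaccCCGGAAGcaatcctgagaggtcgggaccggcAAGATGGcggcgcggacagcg
MRPL52: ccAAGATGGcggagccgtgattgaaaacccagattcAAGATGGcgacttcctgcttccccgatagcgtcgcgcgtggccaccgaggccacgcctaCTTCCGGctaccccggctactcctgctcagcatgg
MRPS18A: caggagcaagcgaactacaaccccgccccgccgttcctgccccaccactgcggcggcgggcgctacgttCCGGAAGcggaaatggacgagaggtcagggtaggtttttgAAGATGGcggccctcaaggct

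Most genes of both subunits were lower with MI-503 than with DMSO. Of the 76 tested genes, 67 were called lower and 0 higher than in DMSO, where 29.3% of all tested genes were called lower and 22.0% higher. In the large subunit 44 of 49 were lower, with a median log2 fold change of -0.35, and in the small subunit 23 of 27, with a median of -0.31, beside -0.028 over all tested genes. Their summed level was 5023, 4797, 4921 and 4928 CPM in the DMSO libraries and 3839, 3882, 3996 and 3922 CPM in the MI-503 libraries. The ranges of the groups did not overlap and lay below DMSO for 68 of the 76 genes, against 29.1% of all tested genes. From bulk RNA, fewer cells expressing these genes and less RNA per cell cannot be told apart.

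Large-subunit genes fell by up to 0.75 on the log2 scale. MRPL1, which encodes the protein of the mobile L1 stalk near the tRNA exit, stood at 54.2, 49.1, 48.6 and 48.1 CPM in the DMSO libraries, 27.8, 28.9, 30.8 and 31.4 CPM in the MI-503 libraries and 31.3, 31.1 and 35.2 CPM in the combination libraries. The MI-503 libraries were all below the lowest DMSO library, also without the high DMSO replicate 1 (log2 fold change -0.75, SE 0.059, edgeR adjusted p = 2.45e-08). MRPL44, whose product has a fold like that of ribonuclease III, stood at 56.6, 55.7, 58.3 and 55.00 CPM in the DMSO libraries, 36.5, 37.8, 37.9 and 39.5 CPM in the MI-503 libraries and 34.04, 36.6 and 39.3 CPM in the combination libraries. All MI-503 libraries lay below DMSO and overlapped the combination (log2 fold change -0.57, SE 0.05, edgeR adjusted p = 7.69e-08). MRPL15, a protein of the large-subunit core, went from 75.1 ± 1.82 CPM in DMSO to 52.3 ± 1.78 CPM with MI-503 (log2 fold change -0.52, SE 0.05, edgeR adjusted p = 2.46e-07). MRPL12 stood at 139, 130.1, 133 and 130.4 CPM in the DMSO libraries, 104, 105, 112 and 107 CPM in the MI-503 libraries and 75.2, 80.9 and 86.02 CPM in the combination libraries, and all 4 MI-503 libraries lay below DMSO (log2 fold change -0.32, SE 0.046, edgeR adjusted p = 2.04e-05).

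Small-subunit genes fell by a like amount. MRPS2, the counterpart of bacterial protein S2 on the small-subunit body, stood at 65.2, 64.5, 64.98 and 65.1 CPM in the DMSO libraries, 42.7, 41.01, 40.96 and 40.04 CPM in the MI-503 libraries and 34.2, 32.2 and 31.6 CPM in the combination libraries. No library of one group reached another group (log2 fold change -0.66, SE 0.043, edgeR adjusted p = 2.53e-09). MRPS28 went from 43.5 ± 2.33 CPM to 27.96 ± 0.73 CPM (log2 fold change -0.64, SE 0.053, edgeR adjusted p = 5.11e-08), and MRPS7, which binds the small-subunit rRNA, from 64.9 ± 2.40 CPM to 45.1 ± 2.46 CPM (log2 fold change -0.52, SE 0.055, edgeR adjusted p = 6.08e-07). MRPS7 overlaps MIF4GD over 12.38% of its exon bases. The genes not called were MRPL17, MRPL33, MRPL34, MRPL55, MRPL57, MRPS18B, MRPS25, MRPS33 and MRPS36. MRPL34, a small protein buried in the rRNA of the large subunit, had the highest change among them (log2 fold change 0.11, SE 0.053, edgeR adjusted p = 0.11), and it was called higher in 6 of the 19 alternatives. MRPS25 (log2 fold change -0.073, SE 0.049, edgeR adjusted p = 0.23) shares 53.87% of its exon bases with NR2C2.

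**Figure D1:**
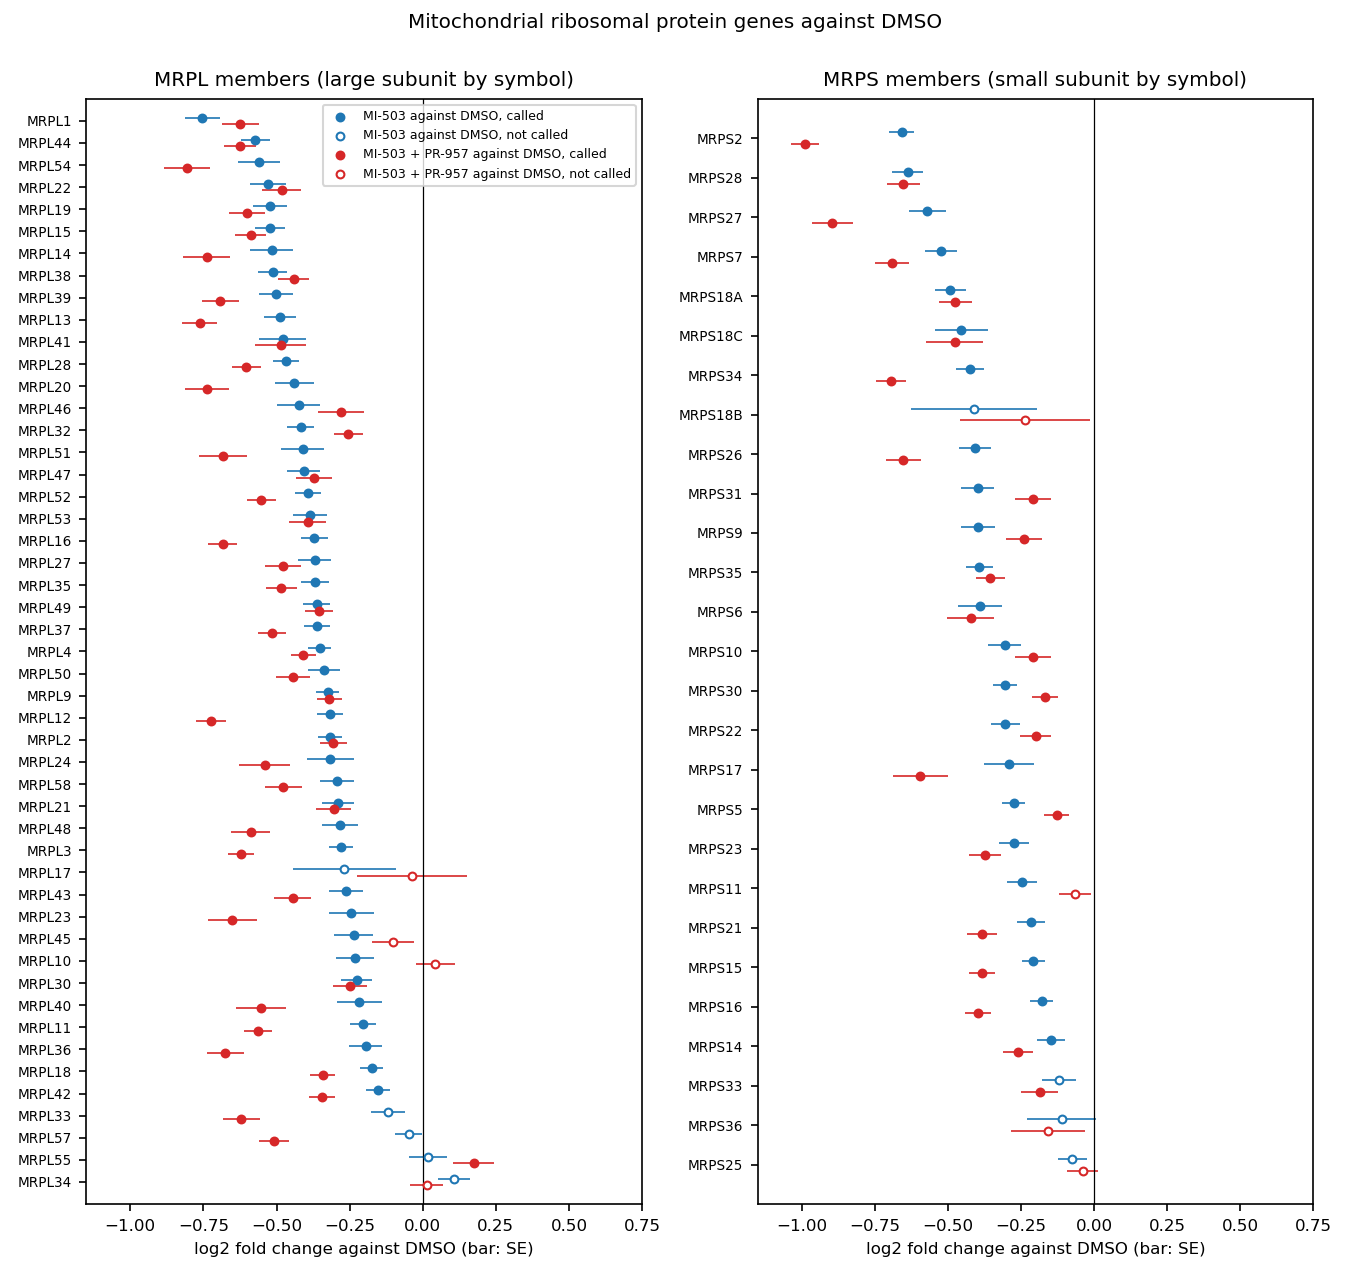
Log2 fold change against DMSO of every tested mitochondrial ribosomal protein gene, MRPL genes on the left and MRPS genes on the right, ordered by the MI-503 change, with MI-503 in blue and the combination in red. Bars are standard errors and open circles were not called. Nearly all points lie left of 0, with MRPS2 at -0.66 for MI-503 and -0.99 for the combination, while MRPL34, MRPL55 and MRPS25 stay near 0.

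In the combination 67 of the 76 genes were again called lower than in DMSO and 1 higher, where 32.8% of all tested genes were lower and 31.7% higher. This comparison shares the DMSO libraries with the first. The large subunit had 44 of 49 genes lower and a median log2 fold change of -0.48, the small subunit 23 of 27 and a median of -0.37, beside 0.013 over all tested genes. Without replicate 1 of the combination, 45 large and 21 small genes were lower, with medians of -0.46 and -0.34. Over all genes, leaving out each library in turn gave 4534 to 4763 lower. The summed level in the combination libraries was 3509, 3586 and 3754 CPM, each below the lowest MI-503 library. Ranges lay apart below DMSO for 66 genes and above for 1, against 31.2% and 29.3% of all tested genes.

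MRPS2 changed most, at -0.99, to 32.7 ± 1.36 CPM from 64.9 ± 0.30 CPM (SE 0.047, edgeR adjusted p = 2.02e-11). It shares 10.65% of its exon bases with LOC101928525 and so lies outside the set of 53 genes, where MRPS27 had the largest change of the small subunit. MRPS27, a pentatricopeptide-repeat protein on the small subunit, stood at 189.8, 176, 184 and 184 CPM in the DMSO libraries, 122, 125, 124 and 124 CPM in the MI-503 libraries and 115, 91.97 and 87.8 CPM in the combination libraries. All 3 combination libraries were below the MI-503 libraries, replicate 1 being the nearest to them (log2 fold change -0.89, SE 0.07, edgeR adjusted p = 6.67e-09 against DMSO). MRPS34, which is needed for a stable small subunit, went from 124 ± 1.85 CPM through 92.6 ± 0.96 CPM with MI-503 to 76.9 ± 6.88 CPM (log2 fold change -0.69, SE 0.052, edgeR adjusted p = 4.11e-09 against DMSO). In the large subunit, MRPL54 stood at 50.6, 45.7, 49.7 and 52.01 CPM in the DMSO libraries, 31.7, 33.2, 35.3 and 34.2 CPM in the MI-503 libraries and 23.9, 29.9 and 31.8 CPM in the combination libraries. The combination overlapped the MI-503 range (log2 fold change -0.81, SE 0.08, edgeR adjusted p = 1.30e-07 against DMSO). MRPL12 (log2 fold change -0.72, SE 0.05, edgeR adjusted p = 1.72e-09), MRPL16 (log2 fold change -0.68, SE 0.049, edgeR adjusted p = 2.48e-09) and MRPL3 (log2 fold change -0.62, SE 0.045, edgeR adjusted p = 2.67e-09), the last of which reaches toward the peptidyl transferase center, had the smallest adjusted p in the large subunit.

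MRPL55, a peripheral large-subunit protein, was the gene called higher. It stood at 25.1, 25.9, 24.3 and 21.5 CPM in the DMSO libraries, 26.7, 24.5, 24.2 and 22.9 CPM in the MI-503 libraries and 26.2, 27.3 and 28.6 CPM in the combination libraries, and the lowest combination library was just above the highest DMSO library (log2 fold change 0.17, SE 0.07, edgeR adjusted p = 0.038). The call was lost without DMSO replicate 3 or 4 and without combination replicate 2 or 4, with the adjusted p up to 0.13 over all alternatives. MRPS25 was the least changed small-subunit gene (log2 fold change -0.038, SE 0.053, edgeR adjusted p = 0.54), and MRPL10, MRPL17, MRPL34, MRPL45, MRPS11, MRPS18B and MRPS36 were not called either. Taken over the 3 comparisons, which share libraries, 31 genes (22 large, 9 small) were lower in each, and MRPL17, MRPL34, MRPS18B, MRPS25 and MRPS36 were called in none. Such joint shares were not computed over all tested genes. The share of these lower in each can be at most the 23.8% called lower in the combination against MI-503.

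**Figure D2:**
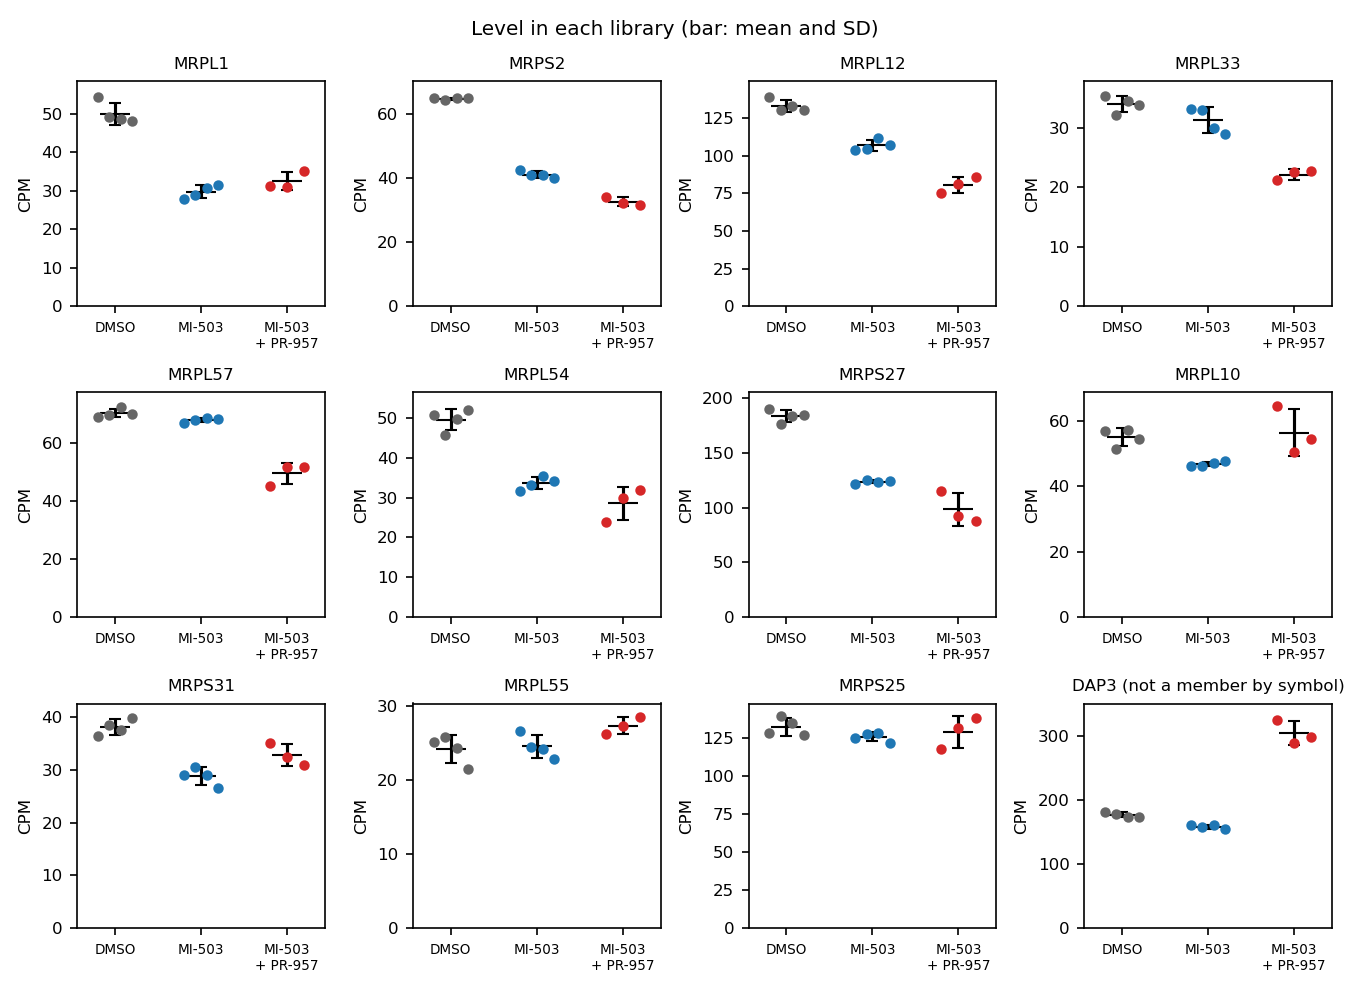
CPM in each library of 11 of the genes and of DAP3, with DMSO in grey, MI-503 in blue and the combination in red, and the group mean and SD as black bars on axes that start at 0. MRPL1 is about as low in the combination as with MI-503, MRPL33 and MRPL57 are low in the combination, MRPS2 is lower at both steps, and DAP3 stands near 300 CPM in the combination alone.

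On adding PR-957 to MI-503, falls outnumbered rises in both subunits. Against MI-503, 33 of the 76 were called lower and 7 higher, where 23.8% of all tested genes were lower and 23.6% higher, 47.4% in either direction. In the large subunit 24 of 49 were lower and 2 higher (median -0.12), in the small subunit 9 of 27 were lower and 5 higher (median -0.031, and 0.0028 without MI-503 replicate 3), beside a median of 0.0041 over all tested genes. That was 49.0% lower and 4.08% higher in the large subunit. In the small one it was 33.3% lower and 18.5% higher, nearer the shares of all tested genes. The set of 53 genes gave another picture for the small subunit, with 7 of 16 lower and 5 higher (43.75% and 31.25%). Its large-subunit genes had 18 of 37 lower and 2 higher (48.65% and 5.41%). Over all 76 genes, ranges lay apart below MI-503 for 26 and above for 8, against 23.7% and 23.8% of all tested genes. Without combination replicate 1 the counts were 22 lower and 3 higher in the large subunit, and 8 lower and 2 higher in the small one. Over all genes, leaving out each library in turn gave 3145 to 4059 lower and 2578 to 3485 higher. With the replicate number as a block, MRPL24, MRPL28 and MRPS9 lost their calls and 37 of 40 were kept.

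MRPL33, MRPL57 and MRPL12 had the smallest adjusted p in the large subunit, and MI-503 alone had left the first and second of them without a call. MRPL33, the counterpart of bacterial L33, stood at 35.3, 32.2, 34.5 and 33.9 CPM in the DMSO libraries, 33.2, 33.1, 29.98 and 28.9 CPM in the MI-503 libraries and 21.2, 22.5 and 22.8 CPM in the combination libraries. MI-503 and DMSO overlapped, and the combination lay below both (log2 fold change -0.50, SE 0.063, edgeR adjusted p = 6.65e-06). MRPL57 stood at 68.9, 69.8, 72.3 and 69.8 CPM in the DMSO libraries, 66.9, 67.95, 68.7 and 68.1 CPM in the MI-503 libraries and 45.1, 51.7 and 51.6 CPM in the combination libraries, with the combination again below both groups (log2 fold change -0.46, SE 0.05, edgeR adjusted p = 1.42e-06). MRPL12 went from 107 ± 3.71 CPM to 80.7 ± 5.43 CPM (log2 fold change -0.41, SE 0.05, edgeR adjusted p = 5.32e-06). In the small subunit MRPS2 (log2 fold change -0.33, SE 0.047, edgeR adjusted p = 2.39e-05), MRPS34 (log2 fold change -0.27, SE 0.052, edgeR adjusted p = 3.89e-04) and MRPS16 (log2 fold change -0.22, SE 0.044, edgeR adjusted p = 5.99e-04) had the smallest adjusted p. Replicate 1 decided several sizes. Without it, MRPS27 was at -0.49 instead of -0.32, MRPL51 at -0.16 instead of -0.27, and MRPL54 at -0.15 instead of -0.25 with its call lost (edgeR adjusted p = 0.057). Without replicate 4, MRPL51 was at -0.44, MRPL54 at -0.38 and MRPS7 at -0.27 instead of -0.17. The call of MRPS7 was lost in 5 of 19 alternatives, and that of MRPL54 also without MI-503 replicate 3.

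The genes called higher were MRPL10, MRPL32, MRPS5, MRPS9, MRPS11, MRPS30 and MRPS31. MRPL10, which anchors MRPL12 on the ribosome, stood at 56.9, 51.4, 57.1 and 54.3 CPM in the DMSO libraries, 46.3, 46.2, 47.03 and 47.6 CPM in the MI-503 libraries and 64.4, 50.3 and 54.3 CPM in the combination libraries. The combination lay above MI-503 and overlapped DMSO (log2 fold change 0.28, SE 0.068, edgeR adjusted p = 0.0029), and without replicate 1 the change was 0.14 (edgeR adjusted p = 0.036). MRPS31 stood at 36.4, 38.5, 37.5 and 39.9 CPM in the DMSO libraries, 29.02, 30.6, 29.1 and 26.6 CPM in the MI-503 libraries and 35.1, 32.5 and 30.9 CPM in the combination libraries, with the combination between the other groups (log2 fold change 0.19, SE 0.061, edgeR adjusted p = 0.017). Without replicate 1 it was at 0.11 and not called (edgeR adjusted p = 0.17), nor was it without combination replicate 2 or MI-503 replicate 4. MRPS30, of the large subunit by structure, moved by 0.14 (SE 0.044, edgeR adjusted p = 0.019), and its call was lost in 5 of 19 alternatives. For all 5 small-subunit rises, every combination library lay above every MI-503 library. Their calls depended on the number of libraries, since 0 of them remained called without combination replicate 2 and 1 without replicate 4.

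**Figure D3:**
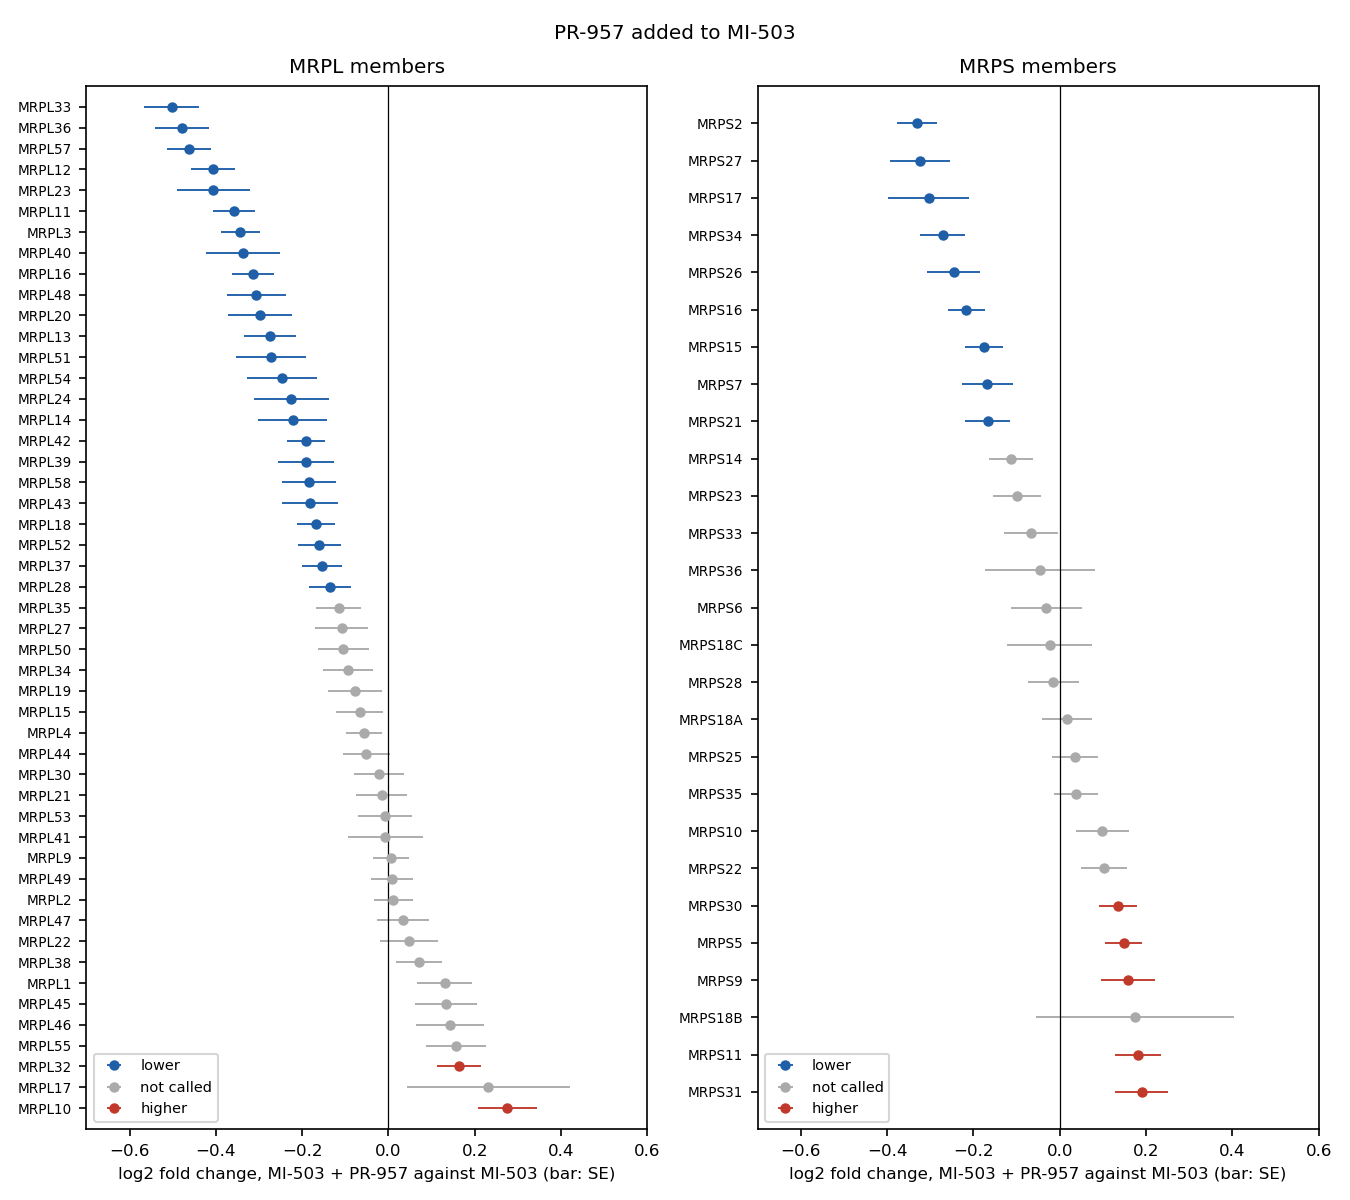
Log2 fold change of every tested gene between the combination and MI-503, MRPL genes on the left and MRPS genes on the right, with standard errors as bars. Genes called lower are blue (24 and 9), genes called higher red (2 and 5) and the others grey, and the left panel leans further below 0 than the right one.

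The balance of both subunits was followed as the ratio of the summed MRPL to the summed MRPS level in each library. It is a description and carries no test. The MRPL sum was 3213, 3065, 3139 and 3147 CPM in DMSO, 2448, 2471, 2548 and 2510.0 CPM in MI-503 and 2189, 2252 and 2371 CPM in the combination. The MRPS sum was 1810.0, 1731, 1782 and 1781 CPM in DMSO, 1391, 1411, 1449 and 1413 CPM in MI-503 and 1320.0, 1333 and 1384 CPM in the combination. Both sums of every treated library lay below DMSO, and the ratio was lower only in the combination, at 1.69 ± 0.027 (SD, n = 3) against 1.77 ± 0.0053 (SD, n = 4) in DMSO and 1.76 ± 0.011 (n = 4) in MI-503. No combination library reached the other groups, its highest ratio being 1.71 and the lowest elsewhere 1.75. The combination was again below the other groups, without overlap, with the subunits taken by structure (1.971 in DMSO, 1.960 in MI-503 and 1.905 in the combination), without the most abundant gene of each subunit (1.835, 1.852 and 1.746) and per kilobase of exon (2.288, 2.312 and 2.229). Groups overlapped per kilobase with the subunits taken by structure (2.588, 2.614 and 2.568). They also overlapped over the 53 genes free of shared or recurring exons, an alternative chosen after seeing the data, where the ratio was 1.850 ± 0.014, 1.832 ± 0.014 and 1.806 ± 0.065. In that set the median change on adding PR-957 was -0.11 in the large subunit and -0.11 in the small one.

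**Figure D4:**
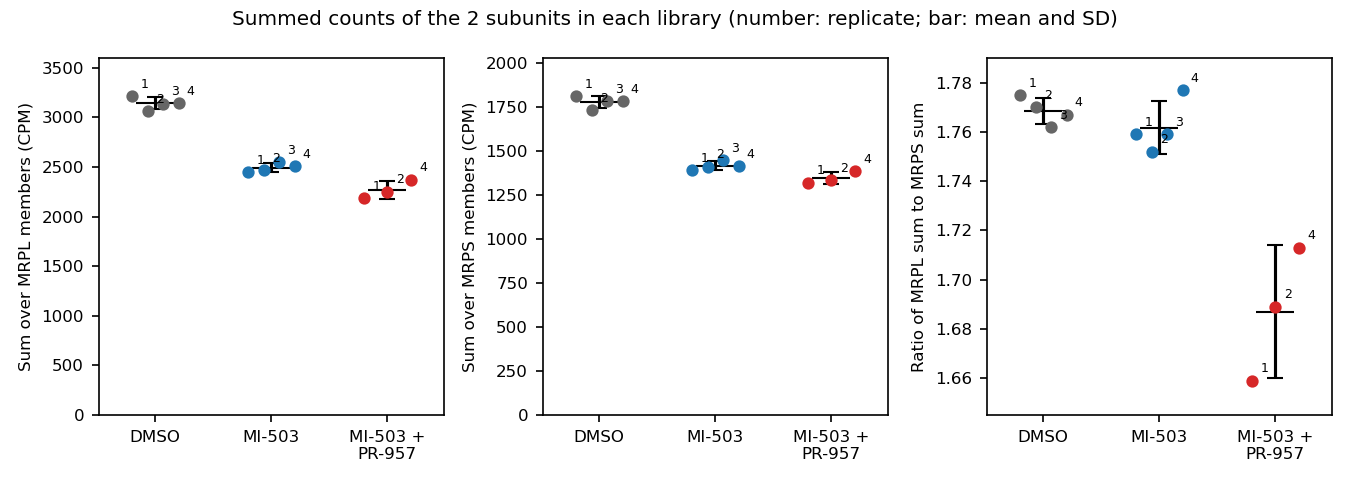
Summed CPM of the MRPL genes, summed CPM of the MRPS genes and their ratio in each library, with the group mean and SD as bars and the replicate number beside each point. The first 2 axes start at 0, the ratio axis does not. The combination ratios of 1.66 to 1.71 lie below the 1.75 to 1.78 of the other libraries.

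The MRPS18 family holds 3 proteins, of which MRPS18C is the direct counterpart of bacterial S18 and MRPS18B also sits in the small subunit. MRPS18A went from 40.3 ± 1.51 CPM to 28.7 ± 1.60 CPM and 29.1 ± 1.13 CPM, and was lower in both comparisons with DMSO (log2 fold change -0.49, SE 0.053, edgeR adjusted p = 9.49e-07 with MI-503). MRPS18C went from 21.1 ± 1.54 CPM to 15.5 ± 1.19 CPM and 15.3 ± 2.43 CPM (log2 fold change -0.45, SE 0.09, edgeR adjusted p = 4.33e-04 with MI-503). Exon bases are shared over 50.32% of MRPS18A with RSPH9 and over 77.33% of MRPS18C with ABRAXAS1. MRPS18B had about 1 CPM in each group and was called in no comparison. MRPS30 fell with MI-503 from 76.3 ± 1.33 CPM to 61.9 ± 2.77 CPM (log2 fold change -0.30, SE 0.041, edgeR adjusted p = 1.12e-05) and was at 67.9 ± 0.98 CPM in the combination. MRPS36 was not called, at 6.71 ± 0.74 CPM, 6.25 ± 0.93 CPM and 5.99 ± 0.52 CPM in the same order. Since 91.4% of its exon windows recur on other contigs, its counts may be incomplete.

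Mitoribosome subunits that do not carry an MRP symbol followed the others with 1 exception. DAP3, AURKAIP1, CHCHD1 and PTCD3 belong to the small subunit and GADD45GIP1 to the large one, and OXA1L, listed with them, inserts the new chains into the inner membrane. With MI-503, 5 of these 6 genes were lower and 0 higher. In the combination 5 were lower and 1 higher than in DMSO, and 3 were lower and 1 higher than with MI-503. Over all tested genes, 29.3%, 32.8% and 23.8% were lower in these comparisons, and 22.0%, 31.7% and 23.6% higher. AURKAIP1 stood at 160.4, 145, 155 and 159 CPM in the DMSO libraries, 106, 114, 119 and 119 CPM in the MI-503 libraries and 82.6, 93.8 and 103 CPM in the combination libraries. Each step lowered it without overlap (log2 fold change -0.44, SE 0.059, edgeR adjusted p = 1.01e-05 with MI-503, and log2 fold change -0.30, SE 0.065, edgeR adjusted p = 0.0011 on adding PR-957). GADD45GIP1 moved by -0.48 with MI-503 (SE 0.061, edgeR adjusted p = 4.76e-06) and by -0.20 on adding PR-957 (SE 0.066, edgeR adjusted p = 0.018), the latter being -0.13 without combination replicate 1 and -0.32 without replicate 4. That second call was lost without MI-503 replicate 4 (edgeR adjusted p = 0.053). CHCHD1 fell with MI-503 (log2 fold change -0.31, SE 0.064, edgeR adjusted p = 6.62e-04) and again on adding PR-957 (log2 fold change -0.28, SE 0.071, edgeR adjusted p = 0.004), the latter being -0.42 without combination replicate 4. PTCD3 was lower with MI-503 (log2 fold change -0.15, SE 0.042, edgeR adjusted p = 0.0071), not called under upper-quartile factors (-0.086, edgeR adjusted p = 0.12), and in the combination (log2 fold change -0.25, SE 0.045, edgeR adjusted p = 1.32e-04).

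DAP3 was the exception. It is a GTP-binding protein at the head of the small subunit and was also described as a mediator of cell death. Its level was 181, 178, 174 and 174 CPM in the DMSO libraries, 160.5, 157, 161 and 154 CPM in the MI-503 libraries and 325, 288 and 298 CPM in the combination libraries. All combination libraries lay above the highest library of the other groups. The change was a small fall with MI-503 (log2 fold change -0.16, SE 0.042, edgeR adjusted p = 0.0042), not called under upper-quartile factors, and a rise on adding PR-957 (log2 fold change 0.94, SE 0.044, edgeR adjusted p = 6.00e-11), which left the combination above DMSO (log2 fold change 0.78, SE 0.044, edgeR adjusted p = 1.57e-10). The rise kept its call in all 19 alternatives, between 0.86 and 0.96 against MI-503. DAP3 (chr1:155687902-155739010) shares 4.86% of its exon bases with YY1AP1.

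Factors that build and serve the mitoribosome were mostly lower with MI-503 too. Of 27 assembly factors, 21 were lower and 0 higher with MI-503 (median -0.35), 19 lower and 1 higher in the combination (median -0.38), and 8 lower and 5 higher on adding PR-957 (median -0.075). The shares of the last comparison, 29.6% lower and 18.5% higher, were near the 23.8% and 23.6% of all tested genes, whereas those lower with MI-503 (77.8%) and in the combination (70.4%) stood beside 29.3% and 32.8%. RCC1L, a guanine nucleotide exchange factor-like assembly protein, fell with MI-503 (log2 fold change -0.73, SE 0.041, edgeR adjusted p = 4.40e-10), as did the rRNA methyltransferase MRM3 (log2 fold change -0.71, SE 0.054, edgeR adjusted p = 1.71e-08) and the pseudouridine synthase family protein TRUB2 (log2 fold change -0.51, SE 0.042, edgeR adjusted p = 4.51e-08). C1QBP, a mitochondrial matrix protein whose gene shares 20.87% of its exon bases with RPAIN, stood at 387, 369.9, 378 and 388 CPM in the DMSO libraries, 272, 275, 292 and 276 CPM in the MI-503 libraries and 204, 208 and 202 CPM in the combination libraries. The groups did not overlap at either step (log2 fold change -0.45, SE 0.038, edgeR adjusted p = 5.23e-08 with MI-503, and log2 fold change -0.45, SE 0.041, edgeR adjusted p = 2.05e-07 on adding PR-957). The endoribonuclease YBEY (log2 fold change 0.39, SE 0.082, edgeR adjusted p = 9.16e-04) and the GTPase MTG2 (log2 fold change 0.26, SE 0.061, edgeR adjusted p = 0.0024) rose on adding PR-957, and the latter call was lost without combination replicate 4 (0.13, edgeR adjusted p = 0.063).

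Of 16 translation factors, 16 were lower with MI-503 (median -0.37), 13 were lower and 0 higher in the combination (median -0.44), and 5 were lower and 4 higher on adding PR-957 (median 0.023). On adding PR-957 that was 31.2% lower and 25% higher, near the 23.8% and 23.6% of all tested genes. Lower with MI-503 were 100%, and in the combination 81.25%, beside 29.3% and 32.8% of all tested genes. The elongation factors TSFM (log2 fold change -0.74, SE 0.048, edgeR adjusted p = 2.88e-09), GFM1 (log2 fold change -0.64, SE 0.045, edgeR adjusted p = 6.52e-09) and TUFM (log2 fold change -0.42, SE 0.037, edgeR adjusted p = 8.32e-08) had the smallest adjusted p with MI-503. GUF1, a back-translocating GTPase, went lower again on adding PR-957 (log2 fold change -0.32, SE 0.044, edgeR adjusted p = 1.51e-05), as did the rescue factor gene C12orf65 (log2 fold change -0.23, SE 0.057, edgeR adjusted p = 0.0027), whereas the release factor gene MTRF1 rose (log2 fold change 0.27, SE 0.05, edgeR adjusted p = 3.16e-04).

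Of 18 regulators of mitochondrial genome expression and biogenesis, 12 were lower and 1 higher with MI-503, 11 lower and 2 higher in the combination, and 7 lower and 2 higher on adding PR-957 (medians -0.30, -0.28 and -0.098). That was 66.7%, 61.1% and 38.9% lower, beside 29.3%, 32.8% and 23.8% of all tested genes. Higher were 5.56%, 11.1% and 11.1%, beside 22.0%, 31.7% and 23.6%. TFAM, which packages mitochondrial DNA and starts its transcription, stood at 182, 176, 166 and 180.4 CPM in the DMSO libraries, 120.3, 125, 129.6 and 127 CPM in the MI-503 libraries and 100.2, 93.7 and 97.2 CPM in the combination libraries. It fell at each step without overlap (log2 fold change -0.49, SE 0.041, edgeR adjusted p = 5.41e-08 with MI-503, and log2 fold change -0.37, SE 0.045, edgeR adjusted p = 5.12e-06 on adding PR-957). TFB2M, the transcription initiation partner of TFAM, fell with MI-503 (log2 fold change -0.86, SE 0.071, edgeR adjusted p = 4.45e-08), and the DNA helicase TWNK fell at each step (log2 fold change -0.55, SE 0.057, edgeR adjusted p = 5.43e-07 with MI-503, and log2 fold change -0.43, SE 0.062, edgeR adjusted p = 2.87e-05 on adding PR-957). MYC, a transcription factor known to raise ribosome and mitochondrial genes, stood at 660.0, 642, 666 and 659 CPM in the DMSO libraries, 469, 488, 528 and 495 CPM in the MI-503 libraries and 368, 361 and 387 CPM in the combination libraries. It too fell at each step (log2 fold change -0.41, SE 0.042, edgeR adjusted p = 5.71e-07 with MI-503, and log2 fold change -0.41, SE 0.046, edgeR adjusted p = 1.88e-06 on adding PR-957). The gene called higher with MI-503 was PPARGC1A, named after its value was seen, which stayed below 1 CPM in every library.

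**Figure D5:**
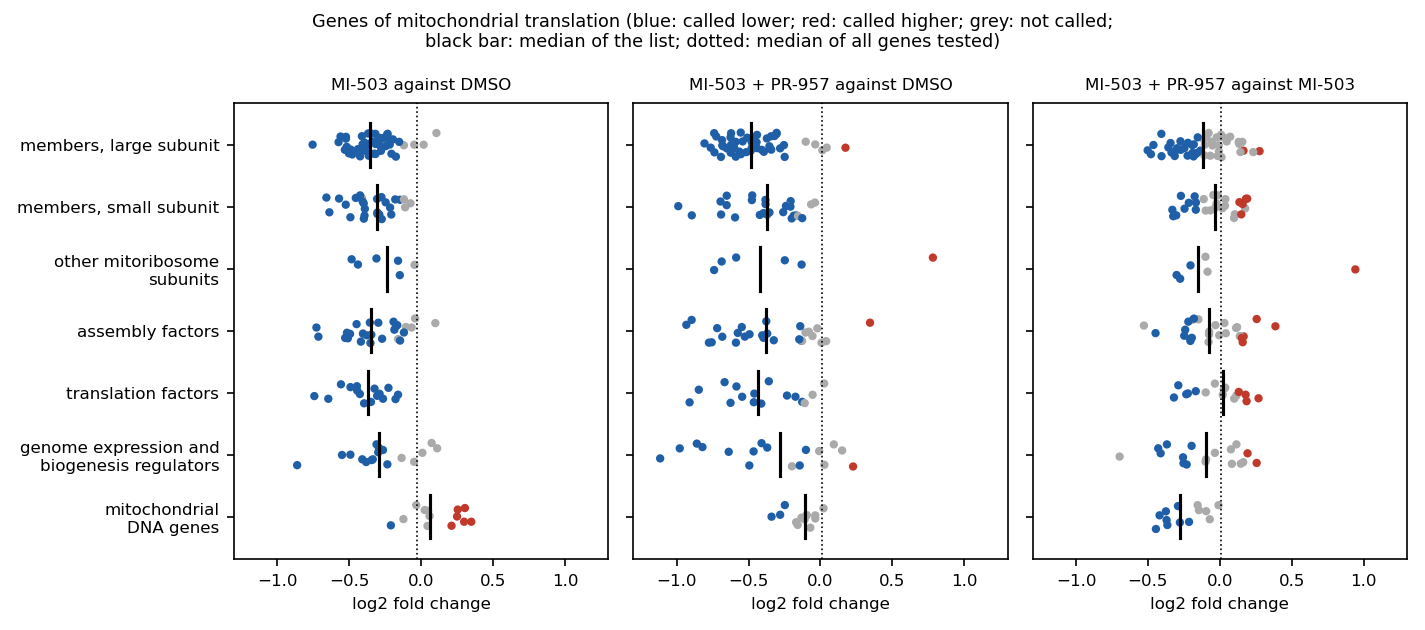
Log2 fold changes of the genes of each list in the 3 comparisons, 1 point a gene, with genes called lower in blue, called higher in red and not called in grey, a black bar at the median of the list and a dotted line at the median of all tested genes. PPARGC1A, beyond the axis in both comparisons with DMSO, is not drawn there. With MI-503 the medians of the nuclear lists lie left of the dotted line and that of the mitochondrial DNA genes right of it, and DAP3 is the isolated red point at 0.94 on the right.

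The mRNAs that the mitoribosome translates did not follow the same course. Of the 13 protein genes of mitochondrial DNA, 6 were higher and 1 lower with MI-503 (median 0.059), 0 higher and 3 lower in the combination (median -0.11), and 0 higher and 8 lower on adding PR-957 (median -0.28). That was 46.15%, 0% and 0% higher and 7.69%, 23.1% and 61.5% lower. In the same order, 22.0%, 31.7% and 23.6% of all tested genes were higher, and 29.3%, 32.8% and 23.8% lower. COX2, a catalytic subunit of cytochrome c oxidase, stood at 4004, 3474, 3588 and 3684 CPM in the DMSO libraries, 4762, 4794, 4653 and 4581 CPM in the MI-503 libraries and 4017, 3164 and 3172 CPM in the combination libraries. MI-503 lay above DMSO (log2 fold change 0.35, SE 0.068, edgeR adjusted p = 3.66e-04), and COX2 fell on adding PR-957 (log2 fold change -0.44, SE 0.074, edgeR adjusted p = 1.06e-04, from -0.59 to -0.42 over all alternatives). The combination overlapped DMSO only through replicate 1, replicates 2 and 4 lying below every DMSO library. ND4L (log2 fold change 0.30, SE 0.065, edgeR adjusted p = 8.06e-04) and ND4 (log2 fold change 0.30, SE 0.065, edgeR adjusted p = 9.32e-04) rose with MI-503 as well, and COX3 was lower in the combination (log2 fold change -0.34, SE 0.072, edgeR adjusted p = 5.28e-04), as were ND1 (log2 fold change -0.28, SE 0.062, edgeR adjusted p = 8.17e-04) and ND2 (log2 fold change -0.25, SE 0.057, edgeR adjusted p = 0.001). The COX3 change ran from -0.44 to -0.27 over all alternatives. Cytosolic ribosomal proteins, which make up the other ribosome of the cell, had 36 of 73 tested genes higher and 3 lower with MI-503 (median 0.13), 11 higher and 12 lower in the combination (median 0.015), and 0 higher and 31 lower on adding PR-957 (median -0.13). That was 49.3% higher and 4.11% lower with MI-503, and 42.5% lower on adding PR-957. The 15.1% higher and 16.4% lower in the combination were below the shares of all tested genes. Nuclear-encoded respiratory chain subunits had 50 of 70 lower and 0 higher with MI-503 (median -0.22), 61 lower and 1 higher in the combination (median -0.38), and 33 lower and 3 higher on adding PR-957 (median -0.17). Their shares lower were 71.4%, 87.1% and 47.1%.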

How the data were processed

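Polyadenylated RNA of 11 MOLM-13 libraries was sequenced in pairs. Per the labels and the methods of the study, the authors trimmed reads with Trimmomatic 0.39, aligned them to hg38 with STAR 2.7.10a, filtered the alignments by a rule not given in the sources used here, and made the deposited counts with featureCounts 2.0.1, which counted fragments over the exons of each RefSeq gene unstranded. Any fragment with several alignments, or lying in more than 1 gene, was not counted, which lowers the counts of genes that share exons or recur in the genome. The deposited tables of the authors' own comparisons hold log2 fold changes and p-values and were not used.

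Counts were fitted with edgeR 4.0.16 (R 4.3.3) in 1 model of all 11 libraries and 3 groups, with TMM factors between 0.956 and 1.06, filterByExpr (minimum count 10, total 15), the quasi-likelihood test and Benjamini-Hochberg adjustment over 14683 genes. The biological coefficient of variation was 6.14%, with 8 residual degrees of freedom. Exon sharing and recurrence in windows of 100 bases were computed from the annotation and the hg38 sequence. The test was run on simulated counts with known changes in few genes, the same dispersion for all genes and no outlying library. These data differ in each respect, so that run cannot show how well the test holds for them. Promoter windows and their sequences came from RefSeq (GRCh38.p14). Alternatives were RLE and upper-quartile factors, no filter, a stricter filter (at least 1 CPM in every library), DESeq2 1.42.0, limma-voom (limma 3.58.1), a replicate block, only the 2 groups compared, and leaving out each library.

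The genes, lists and tests were chosen with earlier results of these data known. Named were, for each comparison and subunit, the 3 called genes with the smallest adjusted p and those with the largest rise and fall, the 2 highest and 2 lowest per kilobase in DMSO, the MRPS18 genes, MRPS30, MRPS36, MRPL12 and the untested genes, and for each other list the 3 genes with the smallest adjusted p in each comparison, with MYC, TFAM, DAP3, PTCD3 and GADD45GIP1. Cytosolic ribosomal proteins and respiratory chain subunits are given by counts and medians.

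Samples with the same replicate number deviated together in the combination and MI-503 (r = 0.141, 0.149 and 0.211 over 10041 genes for numbers 1, 2 and 4), each above the limit of 0.1 set for pairing. The main fits were not paired, and the numbers entered only as the replicate block among the alternatives. Samples with different numbers correlated as well, MI-503 replicate 3 with combination replicate 4 at r = 0.269 and MI-503 replicate 1 with combination replicate 2 at r = 0.129, so the correlation is not specific to the numbers. Against DMSO they did not in every pair (r from -0.252 to 0.285). One marker of other cell types and 1 exon overlap are not reported here.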

Additional observations from a re-analysis of the deposited data

Results flagged for a closer look

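In 5 of 120 groups of 4 libraries, 1 library lay far from the other 3 for a named gene, where chance alone gives about 1 in 20. MRPL1 was at 54.2 CPM in DMSO replicate 1 and at 48.1 to 49.1 CPM in the other DMSO libraries. MRPS7 was at 41.5 CPM in MI-503 replicate 1 and at 46.1 to 46.7 CPM in the others. MTG2 was at 75.1 CPM in DMSO replicate 3, against 71.3 to 71.7 CPM. ND1 was at 4950.0 CPM in MI-503 replicate 2, against 4725 to 4755 CPM. TSFM was at 87.8 CPM in DMSO replicate 2, against 91.2 to 91.4 CPM.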

How the results depend on the processing

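Of 135 results for single genes, 106 kept their call and direction under every alternative. The falls against DMSO kept their direction in both subunits throughout. Against DMSO, 1 large-subunit gene, MRPL34, was called higher with MI-503 under upper-quartile factors, the stricter filter and only the 2 groups compared. With MI-503 the median of the large subunit was -0.29 under upper-quartile factors and -0.30 with only the 2 groups compared, and that of the small subunit -0.24 and -0.26, and -0.37 without a filter. In the combination against DMSO the medians were -0.42 and -0.30 under upper-quartile factors and -0.44 and -0.33 under the stricter filter. Against MI-503, 3 small-subunit genes were called higher without a filter, and the small-subunit median was -0.11 without genes that share exons or recur. The cause was not tested.

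With the replicate block, for the combination against MI-503, 2 large-subunit genes were higher and 22 lower, and 4 small-subunit genes higher and 9 lower, and no call against DMSO changed. MRPS28, not called, turned from below 0 to 0.0056 under the block.

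Leaving out each library gave 0 to 1 large-subunit genes higher in both comparisons with DMSO. The medians ran from -0.37 to -0.31 (large) and -0.34 to -0.26 (small) with MI-503, and from -0.52 to -0.46 and -0.41 to -0.32 in the combination. Against MI-503, 1 to 3 large and 0 to 5 small genes were higher, 17 to 31 large genes were lower, and the medians ran from -0.19 to -0.11 and from -0.14 to 0.0028. Over all genes in the same fits, 2578 to 3485 were higher and 3145 to 4059 lower. The large to small ratio was 1.766 to 1.771 in DMSO, 1.757 to 1.765 in MI-503 and 1.674 to 1.701 in the combination. Its means in DMSO, MI-503 and the combination were 1.971, 1.960 and 1.905 by structure, 2.288, 2.312 and 2.229 per kilobase, 1.835, 1.852 and 1.746 without the most abundant genes, and 1.850, 1.832 and 1.806 without genes that share exons or recur.

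Changes of sign among single genes all concerned changes that were not called. MRPL57 with MI-503 was 0.015 under upper-quartile factors and 0.0010 with only the 2 groups compared. MRPS25 in the combination against DMSO was 0.029 and 0.0053 under upper-quartile factors and the stricter filter. MRPS18A against MI-503 was -0.0007427 with DESeq2. Over the left-out libraries, MRPL55 with MI-503 ran from -0.033 to 0.062, and in the combination against DMSO MRPL10 ran from -0.050 to 0.11, MRPL34 from -0.026 to 0.11 and MRPS25 from -0.091 to 0.046. Against MI-503 the ranges were -0.041 to 0.042 for MRPS18A, -0.035 to 0.27 for MRPS18B, -0.20 to 0.051 for MRPS18C, -0.055 to 0.075 for MRPS25, -0.093 to 0.0051 for MRPS28 and -0.14 to 0.036 for MRPS36. Genes near 1 CPM or lower, such as MRPS18B, are limited by counting error, and changes below the spread of 3 or 4 libraries were not detectable at this depth.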
